A study of Mus musculus with 17 samples.

Results

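The integrated stress response was followed through 10 genes, 6 transcription factors (Atf4, Atf5, Atf3, Ddit3, Cebpb and Cebpg) and 4 effectors or cofactors (Trib3, Chac1, Sesn2 and Nupr1). They were taken by gene name from a table of 56748 genes. The names matched 11 rows, because Ddit3 also has a short nested gene model that held 0 counts in all libraries, and the row of the full gene was used. All 10 genes passed the filter on low counts and were among 16195 genes tested.

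The integrated stress response is the pathway by which cells under mitochondrial, endoplasmic reticulum, amino acid or heme stress phosphorylate the translation factor eIF2alpha. General translation then falls, while a few mRNAs with upstream open reading frames, among them those of ATF4, ATF5 and CHOP (the protein of Ddit3), are translated more. ATF4 dimerizes with other basic leucine zipper (bZIP) proteins such as the C/EBP family and activates genes of amino acid synthesis, transport and tRNA charging, along with feedback genes such as Trib3. In heart and skeletal muscle with faulty mitochondrial DNA (mtDNA) this response is a known transcript signature.

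Polyadenylated RNA was sequenced from heart tissue of mice aged 12 to 16 months, 1 library per heart, from 9 hMut mice and 8 controls (Ctrl). Which part of the heart was taken is not given in the sources used here. The hMut mice (Polg iMut/iMut; +/Ckmm-cre) carried an inducible allele in which Cre removes a floxed wild-type Polg cassette, so that a mtDNA polymerase without proofreading is expressed. Cre was driven by the muscle creatine kinase promoter, which is active in heart and also in skeletal muscle. The labels give the controls only as Ctrl, and whether they carried the Polg allele or Cre is not given in the sources used here. Hearts are named below by their library numbers, which do not link a hMut heart to a Ctrl heart.

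Total counts per library were between 32915159 and 46486964. Polg mRNA lay between 47.0 and 65.1 CPM (counts scaled to the effective size of the library) in hMut and between 27.1 and 47.2 CPM in Ctrl, a gene count that does not read the proofreading change itself. mtDNA-encoded genes took 15.9% to 23.0% of the counts in hMut and 23.5% to 30.9% in Ctrl, with no overlap. The summed level of 12 cardiomyocyte markers was between 37022 and 57042 CPM in hMut and between 48922 and 58536 CPM in Ctrl, so the tissue label held in every library. hMut 6 and hMut 9 had the highest summed macrophage and monocyte markers, 1432 and 746 CPM, against 353 to 465 CPM in the other hMut hearts and 280 to 420 CPM in Ctrl. In RNA of heart tissue, fewer cells of a type and less RNA per cell cannot be told apart.

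Of the 10 genes, 9 rose in hMut hearts and 0 fell (edgeR quasi-likelihood test, adjusted p under 0.05). Over all tested genes, 3.48% were higher in hMut at that threshold. The median log2 fold change of the 10 genes was 1.38, against 0.00 over all tested genes. The effector Trib3 changed most, by 2.87 on the log2 scale, and the C/EBP factor Cebpb was the gene that did not pass, at 0.16. In 5 of the 10 genes (Atf4, Atf5, Trib3, Chac1 and Sesn2) every hMut heart lay above every Ctrl heart, a pattern held by 0.543% of all tested genes. Without hMut 6 and hMut 9, the same 9 genes passed and 0 fell, with 1.96% of all tested genes higher in hMut there.

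**Figure D1:**
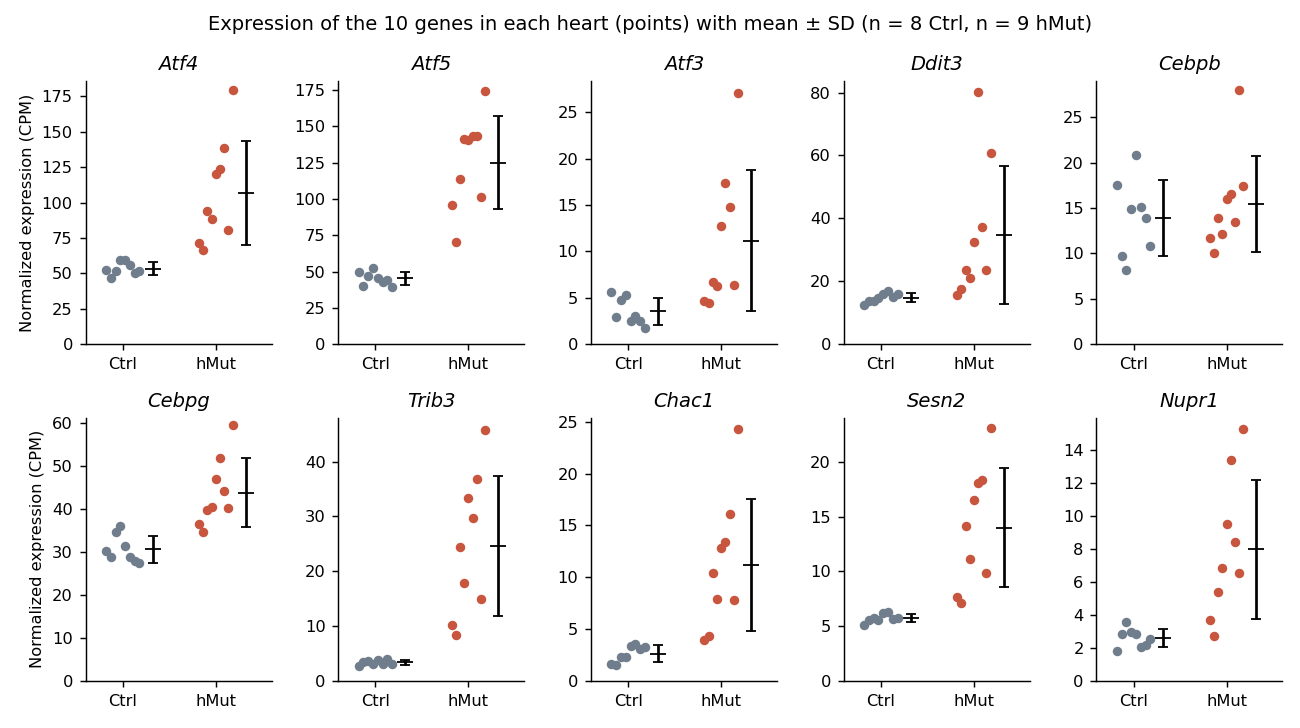
Normalized expression (CPM, linear axes that start at 0) of the 10 genes in 8 Ctrl and 9 hMut hearts, with 1 point per heart in order of library number and mean ± SD as bars. The Ctrl points form a narrow band in most panels, the hMut points spread upward from it, and only in the Cebpb panel do the groups cover the same range apart from 1 heart at 28.0 CPM.

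ATF4 binds composite C/EBP-ATF response elements (CARE), whose core reads TGATGNAA, and the promoters of the 10 genes were searched for it because 9 of them rose in hMut. The search covered 500 bases before to 100 bases after the start site of each canonical transcript (GENCODE vM39 on GRCm39, the build of the counts), on both strands. The core was found in 5 of the 10 promoters (Atf3, Chac1, Ddit3, Sesn2 and Trib3) and in 7.71% of 21765 protein-coding promoters. Its stricter form TGATGCAA, every match of which is also a match to the core, was found in Atf3, Chac1 and Ddit3 and in 1.69% of all promoters. The full cyclic AMP response element, TGACGTCA, was found in 0 of the 10 and in 2.85% of all promoters. In Atf4, Atf5, Cebpb, Cebpg and Nupr1 none of these letters stood in the window.

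The 250 bases before the start site are printed for the 3 genes with the strict form, and 60 bases for the match of Sesn2, which lies farther upstream. They read 5′ to 3′ on the strand of the gene, and capitals mark the core as it appears there, on the opposite strand (TTGCATCA or TTTCATCA).
Ddit3, chr10:127126310-127126559, plus strand: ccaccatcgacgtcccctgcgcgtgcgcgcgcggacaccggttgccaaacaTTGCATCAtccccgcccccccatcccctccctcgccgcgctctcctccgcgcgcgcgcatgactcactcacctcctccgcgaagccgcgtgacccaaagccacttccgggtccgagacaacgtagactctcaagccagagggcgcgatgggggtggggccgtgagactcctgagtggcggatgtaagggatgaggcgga
Atf3, chr1:190915538-190915787, minus strand: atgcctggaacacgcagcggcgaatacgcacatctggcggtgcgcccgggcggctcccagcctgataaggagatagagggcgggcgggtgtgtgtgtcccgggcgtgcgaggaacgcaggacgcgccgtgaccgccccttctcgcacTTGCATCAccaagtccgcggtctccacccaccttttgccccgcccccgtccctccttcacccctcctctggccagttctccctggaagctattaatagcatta
Chac1, chr2:119181439-119181688, plus strand: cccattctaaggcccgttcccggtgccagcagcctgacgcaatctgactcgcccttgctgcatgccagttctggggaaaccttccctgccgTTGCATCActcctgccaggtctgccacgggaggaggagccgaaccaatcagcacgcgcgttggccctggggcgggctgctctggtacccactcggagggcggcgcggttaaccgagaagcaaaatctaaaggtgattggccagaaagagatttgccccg
Sesn2, chr4:132238038-132238097, minus strand: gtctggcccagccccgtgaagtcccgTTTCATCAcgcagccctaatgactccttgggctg

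In these stretches the first capital lies 199 bases before the start site in Ddit3, 103 in Atf3, 159 in Chac1 and 256 in Sesn2. Atf3 held another copy of the strict form 67 bases after its start site, and the match of Trib3, TTACATCA, began 46 bases after its start site. A match is a string of letters and was not tested for binding in these hearts.

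**Figure D2:**
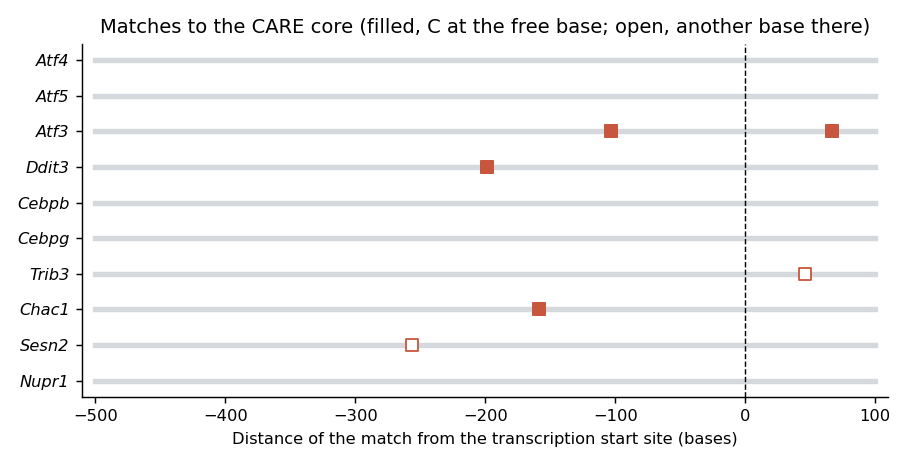
Position of each match to the CARE core in the promoters of the 10 genes, as distance in bases from the transcription start site (dashed line). Filled squares are matches with C at the free base, in Ddit3, Chac1 and Atf3, and open squares are matches with another base there, in Sesn2 and Trib3.

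Atf4, the central factor of the response, is a gene of chromosome 15 (80139385 to 80141742, plus strand, GRCm39). Its level was 46.5 to 59.4 CPM in Ctrl, with a median of 52.3 CPM, and 66.7 to 179 CPM in hMut, with a median of 94.1 CPM. The groups did not overlap, and the lowest hMut hearts, hMut 2 at 66.7 CPM and hMut 1 at 71.5 CPM, lay closest to the Ctrl range. The mean rose from 53.4 ± 4.44 CPM (SD, n = 8) to 107 ± 36.7 CPM (n = 9), a log2 fold change of 1.0 (SE 0.162, edgeR adjusted p = 0.00147).

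Atf5, a related factor under the same kind of translational control and linked to the mitochondrial unfolded protein response, lies on chromosome 7 (44461680 to 44466082, minus strand). It lay between 39.5 and 52.6 CPM in Ctrl (median 45.0) and between 70.0 and 174 CPM in hMut (median 141). Its gap between the groups was wide, with 4 hMut hearts (hMut 4, 5, 6 and 7) close together at 141 to 143 CPM. The log2 fold change was 1.46 (SE 0.139, edgeR adjusted p = 6.25e-06), which ranked it 8th of all tested genes by p.

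Atf3, a bZIP factor induced by many stresses and an early target of ATF4, lies on chromosome 1 (190902493 to 190950236, minus strand). Its level was 1.72 to 5.67 CPM in Ctrl (median 2.99) and 4.43 to 27.1 CPM in hMut (median 6.71). hMut 1 and hMut 2 lay inside the Ctrl range and the other 7 hMut hearts above it. It rose by 1.66 on the log2 scale (SE 0.368, edgeR adjusted p = 0.0157), and by 1.18 without hMut 6 and hMut 9 (adjusted p = 0.0346).

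Ddit3 encodes CHOP, a C/EBP-like factor associated with prolonged stress and cell death, and lies on chromosome 10 (127126643 to 127132157, plus strand). It lay between 12.4 and 16.9 CPM in Ctrl (median 14.9) and between 15.6 and 80.3 CPM in hMut (median 23.7). hMut 6 at 80.3 CPM and hMut 9 at 60.7 CPM stood above hMut 7, the next heart, at 37.3 CPM, and hMut 1 lay inside the Ctrl range. The log2 fold change was 1.23 (SE 0.280, edgeR adjusted p = 0.0181), and it was 0.72 without hMut 6 and hMut 9 (adjusted p = 0.0115). In the gene table of the counts, the spans of Ddit3 and Mars1, a tRNA synthetase gene on the opposite strand, share 68 bases. Opposite-strand spans also overlap between Atf5 and Nup62 (571 bases) and between Cebpb and Peds1 (908 bases). Whether counting used strand is not given in the sources used here, so reads of these overlaps cannot be told apart. Mars1 itself rose by 0.46 (adjusted p = 0.000188), and its highest count was 2863, against 3388 counts of Ddit3 in hMut 6.

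Cebpg and Cebpb are C/EBP factors that can pair with ATF4. Cebpg (chromosome 7, 34745847 to 34755998, minus strand) lay between 27.4 and 36.1 CPM in Ctrl (median 29.6) and between 34.6 and 59.6 CPM in hMut (median 40.5). hMut 2 alone lay within the Ctrl range, and the shift was 0.52 on the log2 scale (SE 0.0961, edgeR adjusted p = 0.00467). Cebpb (chromosome 2, 167530835 to 167532338, plus strand) was 8.12 to 20.8 CPM in Ctrl (median 14.4) and 10.01 to 28.0 CPM in hMut (median 13.9). hMut 8, at 28.0 CPM, was the 1 heart above the Ctrl range. Its log2 fold change of 0.16 (SE 0.199) did not pass (edgeR adjusted p = 0.636), and without hMut 8 it was 0.00.

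Trib3 encodes a pseudokinase that binds ATF4 and restrains it, and lies on chromosome 2 (152179342 to 152185952, minus strand). Its level was 2.64 to 4.06 CPM in Ctrl (median 3.29) and 8.36 to 45.8 CPM in hMut (median 24.5). The lowest hMut heart, hMut 2, held more than any Ctrl heart, and hMut 9 reached 13.6 times the Ctrl mean. The log2 fold change was 2.87 (SE 0.299, edgeR adjusted p = 1.1e-05).

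Chac1 encodes a gamma-glutamyl cyclotransferase that degrades glutathione (chromosome 2, 119181710 to 119184862, plus strand). It lay between 1.58 and 3.52 CPM in Ctrl (median 2.73) and between 3.98 and 24.3 CPM in hMut (median 10.4). hMut 1 and hMut 2, at 3.98 and 4.37 CPM, were close to the top of the Ctrl range, and hMut 9 was at 9.18 times the Ctrl mean. It rose by 2.08 on the log2 scale (SE 0.320, edgeR adjusted p = 0.000962).

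Sesn2 encodes a sestrin, a leucine sensor that restrains mTORC1 (chromosome 4, 132219343 to 132237812, minus strand). Its Ctrl hearts were the most uniform of the 10 genes on the log2 scale (SD 0.0941), at 5.07 to 6.27 CPM with a median of 5.69. The hMut hearts ran from 7.07 to 23.1 CPM with a median of 14.2, all above Ctrl. The log2 fold change was 1.29 (SE 0.199, edgeR adjusted p = 0.000994).

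Nupr1 encodes a small stress-induced chromatin protein (chromosome 7, 126222421 to 126230033, minus strand). It lay between 1.83 and 3.55 CPM in Ctrl (median 2.68) and between 2.72 and 15.3 CPM in hMut (median 6.83). hMut 2 lay inside the Ctrl range and hMut 6 and hMut 9, at 13.4 and 15.3 CPM, were highest. It rose by 1.62 on the log2 scale (SE 0.285, edgeR adjusted p = 0.00297).

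Levels of different genes were compared as CPM per kilobase of gene model. In Ctrl hearts Atf5 (22.7 ± 2.27, SD, n = 8) and Atf4 (22.7 ± 1.88) were highest and did not differ beyond their spread. Cebpb (9.23 ± 2.79) and Ddit3 (8.65 ± 0.851) followed, also within their spread of each other, and then Cebpg (5.45 ± 0.565). Sesn2, Atf3, Chac1 and Trib3 lay together between 1.59 and 1.65 CPM per kilobase, and Nupr1 was lowest at 1.03 ± 0.224. In hMut hearts the level of Atf5 was 62.7 ± 16.1 CPM per kilobase (n = 9) and that of Atf4 45.4 ± 15.5. Trib3 reached 11.6 ± 6.02, close to Cebpb at 10.3 ± 3.52, and Sesn2 and Nupr1 were lowest at 4.02 ± 1.57 and 3.17 ± 1.67.

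Whether the genes changed by different amounts was tested within hearts, where scaling between libraries cancels. For each pair of genes the log2 ratio of their CPM in a heart was compared between groups by a two-sided exact permutation test over 24310 arrangements of the group labels. There were 16 pairs, 9 of them with Atf4 and the rest neighbours in the order of fold change, and p-values were adjusted over the 16. The pairs were chosen after their values had been seen.

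Against Atf4, 7 of the 9 other genes changed by a different amount. Trib3 rose by 1.72 more than Atf4 on the log2 scale, with the ratio above the Ctrl range in 9 of 9 hMut hearts (exact permutation test, adjusted p = 0.000658). Atf5 rose by 0.49 more, also in 9 of 9 hearts (exact permutation adjusted p = 0.000658, for both genes from the smallest p this design can give, 8.23e-05). Chac1 rose by 0.98 more than Atf4 and in 8 of 9 hearts lay above the Ctrl range (exact permutation adjusted p = 0.00237).

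The excess was smaller for Nupr1 (0.51, exact permutation adjusted p = 0.0349) and Sesn2 (0.24, adjusted p = 0.0132). Cebpg changed by 0.43 less than Atf4 (exact permutation adjusted p = 0.000878) and Cebpb by 0.78 less (adjusted p = 0.0132). For Atf3 the difference was 0.54 (adjusted p = 0.0924) and for Ddit3 0.08 (adjusted p = 0.922), and neither passed the exact permutation test. The Ddit3 to Atf4 ratio varied more between hMut hearts (SD 0.465 on the log2 scale) than between Ctrl hearts (SD 0.142). Without hMut 6 and hMut 9, Nupr1 no longer differed from Atf4 at the threshold (difference 0.37, exact permutation adjusted p = 0.100).

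In the order of fold change, Trib3 stood apart from its neighbour Chac1, by 0.75 on the log2 scale (exact permutation adjusted p = 0.00132). From Chac1 through Atf3, Nupr1, Atf5 and Sesn2 to Ddit3, 0 of the 5 neighbouring pairs passed the test, with differences from 0.02 to 0.44. Ddit3 and Atf4 did not differ at the threshold either, while Atf4 and Cebpg did, as given above. Cebpg and Cebpb differed by 0.35 (exact permutation adjusted p = 0.177). Without hMut 6 and hMut 9, Sesn2 exceeded Ddit3 by 0.33 (adjusted p = 0.00696).

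**Figure D3:**
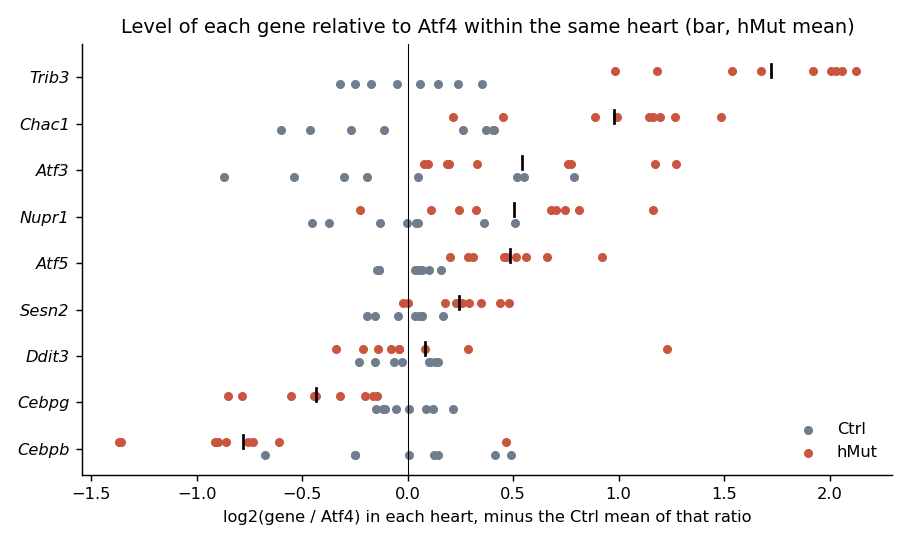
Log2 ratio of each of 9 genes to Atf4 in the same heart, minus the Ctrl mean of that ratio, with 1 point per heart (8 Ctrl in grey, 9 hMut in red) and the hMut mean as a bar. All hMut points of Trib3 and Atf5 lie to the right of the Ctrl points, most of Cebpg and Cebpb lie to the left, and Ddit3 lies around 0 apart from hMut 6.

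On the log2 scale the SD between hMut hearts was larger than that between Ctrl hearts in 9 of the 10 genes, a difference in spread that was not tested. The highest hMut heart held 6.12 times the lowest for Atf3, 6.10 times for Chac1 and 5.48 times for Trib3. Among Ctrl hearts the same ratios were 3.30, 2.23 and 1.54. For Cebpb the ratios were 2.79 in hMut and 2.56 in Ctrl.

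The order of the hearts was much alike from gene to gene. hMut 9 was highest in 8 of the 10 genes and 2nd in Ddit3 and Cebpb, and hMut 2 and hMut 1 took the 2 lowest places in all 10. The median level of the 10 genes, relative to the Ctrl mean, was 4.07 in hMut 9, 4.04 in hMut 6, 3.18 in hMut 7 and 2.998 in hMut 5. It was between 1.85 and 1.98 in hMut 3, hMut 4 and hMut 8, and it was 1.34 in hMut 1 and 1.24 in hMut 2. By count, hMut 2 had 6 and hMut 1 had 7 of the 10 genes above every Ctrl heart, against 9 in each other hMut heart except hMut 8, which had 10. The share of all tested genes above every Ctrl heart was not computed for single hearts, so these counts only describe the hearts.

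Atf4 was used as the anchor of that order, and each tested gene was compared with it over the 9 hMut hearts by Spearman's rho on log2 CPM, with an exact permutation p adjusted over all genes. Of the 9 other stress response genes 4 passed with a positive rho, against 0.513% of all tested genes. Sesn2 placed the hearts in the same order as Atf4 (rho = 1, exact permutation adjusted p = 0.0223). Trib3 and Chac1 each had a rho of 0.98 (adjusted p = 0.0423, exact permutation) and Atf3 one of 0.97 (adjusted p = 0.0487).

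Atf5 (rho = 0.93), Cebpg (0.90), Nupr1 (0.90) and Ddit3 (0.88) did not pass after adjustment, with exact permutation adjusted p from 0.0557 to 0.0753. Cebpb had a rho of 0.55 (exact permutation adjusted p = 0.342). Pearson's r with Atf4 was between 0.86 and 0.98 for the 8 genes other than Cebpb (unadjusted exact permutation p from 1.65e-05 to 0.00309), and 0.30 for Cebpb (p = 0.447). Without hMut 7 and hMut 9, the hearts farthest from the Atf4 median, r was between 0.85 and 0.98 for the 8 genes. In the 7 male hMut hearts, with sex read from the counts, rho was between 0.86 and 1 for the 8 genes and 0.25 for Cebpb.

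The adjusted calls depended on which heart was left out. Without hMut 6, 4 of the 9 genes passed (0.568% of all genes), and 4 passed without hMut 7 (1.46% of all genes). With any of hMut 1, 2, 3, 4, 5, 8 or 9 left out, 0 of 16194 genes passed, so none of the 4 genes did. With fewer hearts the exact permutation test has fewer orders, and its smallest p is larger. After adjustment over all genes it can then call a gene only when many genes have a rho near 1 or -1. These counts of 0 therefore do not show that the order changed. At an unadjusted exact permutation p under 0.05, 8 of the 9 genes had a positive rho over all 9 hearts, against 11.4% of all genes. With any of those 7 hearts left out it was 8 or 9 of the 9 genes, against 7.87% to 11.9% of all genes. With libraries scaled on cardiomyocyte markers, 8 of the 9 genes passed, but so did 27.8% of all genes.

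**Figure D4:**
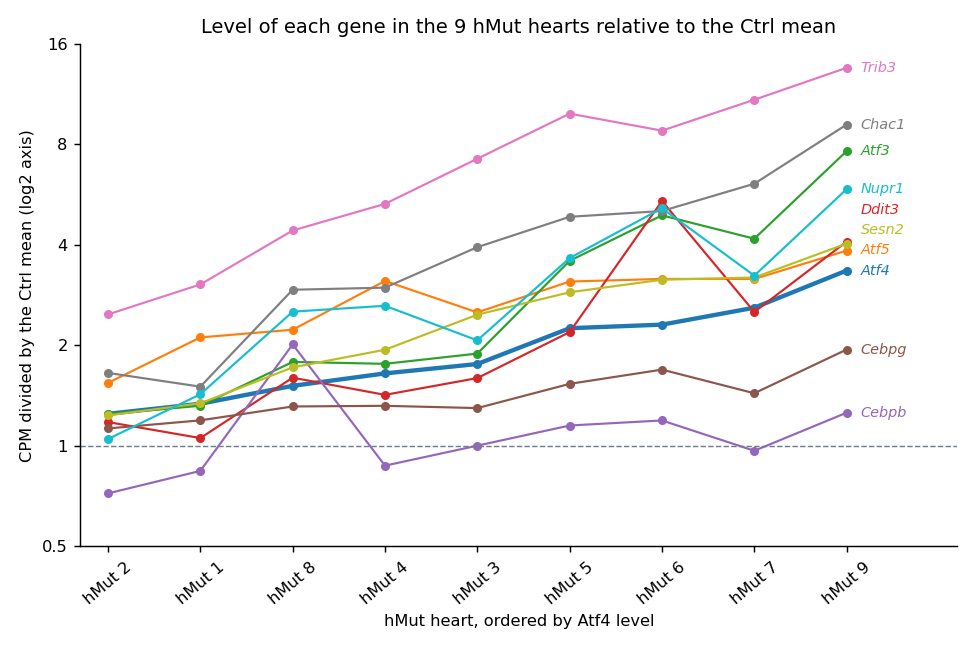
Level of each gene in the 9 hMut hearts as CPM divided by the Ctrl mean, on a log2 axis, with hearts ordered from lowest to highest Atf4 (thick line). Most lines climb together from hMut 2 to hMut 9, Ddit3 peaks in hMut 6, and Cebpb stays near 1 except in hMut 8.

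Other measures of the same 9 hearts were compared with Atf4. By rho, only the summed cardiomyocyte markers and the summed macrophage and monocyte markers passed after adjustment. Of 7 such measures, the summed cardiomyocyte markers had a rho of -0.85 (exact permutation p = 0.00607, adjusted over the 7 measures 0.0213; r = -0.84, adjusted permutation p = 0.0150) and r was -0.80 without hMut 7 and hMut 9. The summed macrophage and monocyte markers had a rho of 0.93 (exact permutation adjusted p = 0.00525), with r = 0.63 (adjusted permutation p = 0.114). Immediate-early genes, which respond quickly to many signals, had a rho of 0.72 (exact permutation adjusted p = 0.0860). Total counts had a rho of 0.17 (adjusted exact permutation p = 0.678) and the share of mtDNA-encoded genes one of -0.33 (adjusted p = 0.450), with r = -0.40, or -0.90 without hMut 7 and hMut 9. The summed lymphocyte markers had a rho of 0.65 (adjusted exact permutation p = 0.116) and the summed fibroblast markers one of 0.50 (adjusted p = 0.249). The part of cell composition in the stress response values was not tested. Scaled on cardiomyocyte markers, which raised the median of all genes by 0.26 on the log2 scale, the same 9 genes were higher in hMut, but so were 44.7% of all tested genes.

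The genes whose pattern over the 9 hMut hearts was most like the mean standardized profile of the 10 genes were found by Pearson's r among 13619 tested genes with a mean of at least 1 CPM. The 8 closest were Adm2, Nectin1, Gdf15, Ell2, Myc, Atp6v1h, Slc3a2 and Shisa3, with r from 0.97 to 0.98. Of these, Adm2, Gdf15, Myc, Atp6v1h, Slc3a2 and Shisa3 were higher in hMut than in Ctrl, and Nectin1 (log2 fold change 0.27, edgeR adjusted p = 0.252) and Ell2 (0.41, adjusted p = 0.0510) did not pass. Gdf15, a secreted stress hormone, rose from 2.94 ± 1.54 CPM (SD, n = 8) to 36.9 ± 28.1 CPM (n = 9). Myc, a growth-promoting transcription factor, rose by 1.52 on the log2 scale (SE 0.272, edgeR adjusted p = 0.00359).

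Known targets of ATF4, in 4 lists of 45 tested genes, were examined next to the 10 genes. Of the 45, 33 rose and 0 fell, with a median log2 fold change of 0.62. Over all tested genes, 3.48% were higher in hMut. In amino acid synthesis and one-carbon metabolism 9 of 13 rose (median log2 fold change 1.21). Mthfd2, a mitochondrial folate enzyme, rose from 4.13 ± 0.978 to 68.9 ± 30.5 CPM (log2 fold change 4.07), against 2.87 for Trib3, and the difference between these genes was not tested. Asns, asparagine synthetase, rose by 3.56 and Psat1, an enzyme of serine synthesis, by 2.74 (edgeR adjusted p = 4.56e-06 for both).

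In amino acid transport 7 of 9 rose (median 1.68). Slc7a5, a leucine carrier, rose by 2.41 on the log2 scale (edgeR adjusted p = 9.7e-06). Slc7a3, an arginine and lysine carrier, was 0.0814 ± 0.0462 CPM in Ctrl and 2.93 ± 1.30 CPM in hMut, and Slc7a11, the cystine carrier, 0.128 ± 0.107 and 3.12 ± 1.56 CPM. Slc1a5 (log2 fold change 0.06) and Slc7a1 (0.17) did not pass.

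Of the cytosolic tRNA synthetases 11 of 12 rose (median 0.58), with Eprs1 at 0.65, Sars1 at 0.85 and Mars1 at 0.46. Among secreted and other targets 6 of 11 rose (median 0.44). Adm2, an adrenomedullin-family peptide, was 0.0265 ± 0.0249 CPM in Ctrl and 1.88 ± 1.24 CPM in hMut, and Fgf21, a metabolic hormone, 0.0467 ± 0.0463 and 1.83 ± 1.40 CPM. Every hMut heart was above every Ctrl heart for both. Xpot, a tRNA exporter, rose by 0.62 (edgeR adjusted p = 1.64e-05).

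**Figure D5:**
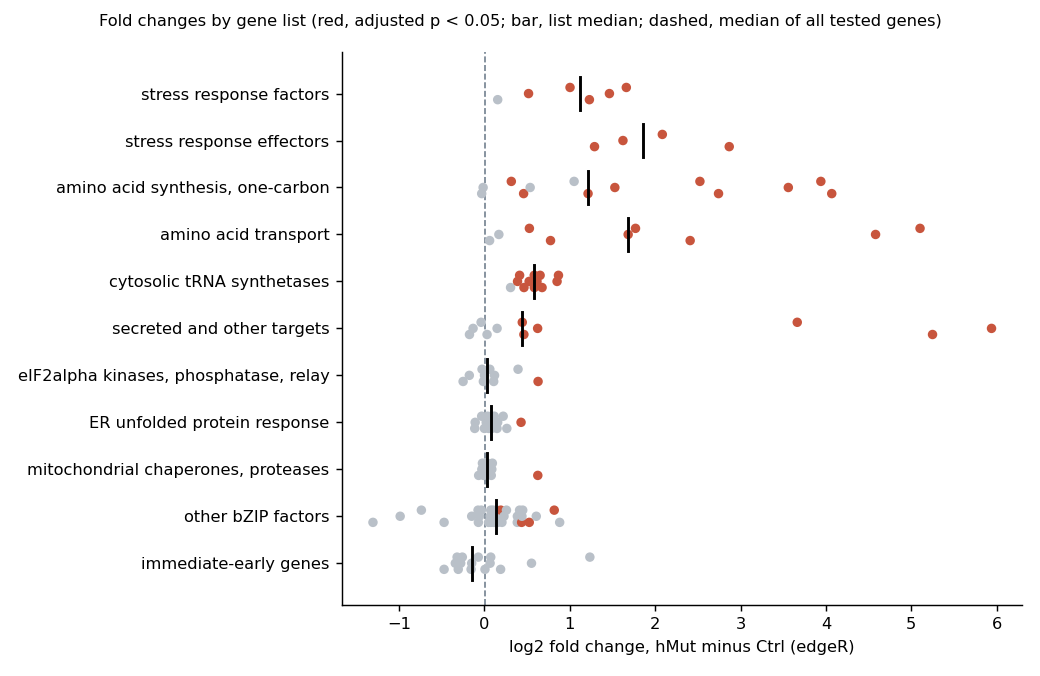
Log2 fold change of hMut over Ctrl for each tested gene of 11 lists, with red points past an adjusted p of 0.05 (edgeR), black bars at list medians and a dashed line at the median of all tested genes. The stress response effectors and the amino acid lists lie farthest to the right, while the endoplasmic reticulum, mitochondrial chaperone and immediate-early lists centre near 0.

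The genes upstream of ATF4 were read from a list of their own. It held eIF2alpha kinases, phosphatase subunits, the relay from mitochondria, eIF2alpha itself and Eif2a, the gene of a different initiation factor. Of these 10 genes 1 rose and 0 fell, with a median log2 fold change of 0.03. At an unadjusted edgeR p under 0.05, 2 were higher and 1 lower, and DESeq2 called 2 higher. Of 16265 genes tested with DESeq2, 1010 (6.21%) were higher and 507 lower. The share of all genes at an unadjusted edgeR p is not given here. Unadjusted counts of this and the later lists therefore only describe them. The gene that rose was Ppp1r15a (GADD34), the inducible phosphatase subunit that is itself an ATF4 and CHOP target (0.63, SE 0.153, edgeR adjusted p = 0.0263). Eif2s1, which encodes eIF2alpha, was at 0.11 (edgeR adjusted p = 0.0880), with 8 of 9 hMut hearts above every Ctrl heart. Dele1, the relay from stressed mitochondria to the kinase HRI, was at -0.25 (edgeR adjusted p = 0.128), with 7 of 9 hMut hearts below every Ctrl heart. The phosphorylation of eIF2alpha, which sets the response, is not read by RNA counts.

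Other arms of the cellular stress response were listed separately. Of 17 genes of the endoplasmic reticulum unfolded protein response 1 rose, Ern1, the sensor IRE1 (0.43, edgeR adjusted p = 0.00652). The list median was 0.08, and 3 genes were higher at an unadjusted edgeR p under 0.05 (2 with DESeq2). Atf6 (0.22, adjusted p = 0.0630) and Dnajb11 (0.11, adjusted p = 0.119) did not pass. Of 10 mitochondrial chaperones and proteases 1 rose, the matrix protease Lonp1 (0.62, SE 0.0860, edgeR adjusted p = 0.000371), and the median was 0.03. The chaperone Hspa9 was at 0.09 (adjusted p = 0.249) and the protease Yme1l1 at -0.07 (adjusted p = 0.308).

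Among 34 tested bZIP factors outside the 10 genes, 4 rose (11.8%) and 0 fell in edgeR, with a median of 0.13. At an unadjusted p under 0.05, 11 were higher and 3 lower. DESeq2 called 6 higher and 2 lower, against 6.21% of all genes higher with DESeq2. Those that rose were Mafk (0.52), Maff (0.82), Fosl2 (0.44) and Creb3l2 (0.19), with edgeR adjusted p from 0.00895 to 0.0365. The lowest log2 fold changes of the list were those of Dbp (-1.31, adjusted p = 0.0613), Hlf (-0.99, adjusted p = 0.114) and Tef (-0.74, adjusted p = 0.0744), clock-controlled factors that did not pass in edgeR. Dbp was at 31.1 ± 23.8 CPM in hMut and 76.7 ± 41.2 CPM in Ctrl, with 7 of 9 hMut hearts below every Ctrl heart. Of 15 immediate-early genes 0 rose or fell in edgeR, and their median was -0.15 (at an unadjusted p under 0.05, 1 was higher and 1 lower, and DESeq2 called 1 higher). Egr2 (1.23, edgeR adjusted p = 0.112), Klf2 (-0.26, adjusted p = 0.184) and Dusp1 (-0.34, adjusted p = 0.228) had the smallest adjusted p among them.

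Marker lists gave these values beside the stress response. Of 12 macrophage and monocyte markers 0 passed, with a median log2 fold change of 0.58 (8 were higher at an unadjusted p under 0.05, and 1 passed with DESeq2). The smallest adjusted p were those of Cd14 (0.56, edgeR adjusted p = 0.0683), Fcgr1 (1.08, adjusted p = 0.103) and C1qa (0.70, adjusted p = 0.113). The most abundant was Lyz2 (237 ± 167 CPM in hMut, 153 ± 23.2 in Ctrl), followed in hMut by C1qa, C1qb and Csf1r at means of 58.1, 54.5 and 53.5 CPM. Of 10 lymphocyte markers 0 passed (5 were higher at an unadjusted p under 0.05, 0 with DESeq2), with summed levels of 6.09 to 76.1 CPM in hMut and 3.12 to 50.2 CPM in Ctrl. Of 12 cardiomyocyte markers 0 passed in edgeR and the median was -0.24 (8 were lower at an unadjusted p under 0.05, and 5 with DESeq2). Their log2 fold changes ran from -0.52 to 0.02. Myh6, the main adult myosin heavy chain, was at -0.34 (edgeR adjusted p = 0.0601), Tnni3 at -0.43 (adjusted p = 0.0629) and Pln at -0.35 (adjusted p = 0.0689). Next to Myh6 the most abundant were Actc1, at -0.05 (edgeR adjusted p = 0.711), and Tnnt2, at -0.24 (adjusted p = 0.0934).

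Markers of other cells moved as well. Of 10 endothelial markers 2 rose and 0 fell (median 0.10), Cldn5, a tight junction protein (0.61, edgeR adjusted p = 0.0388), and Kdr, a VEGF receptor (0.39, adjusted p = 0.0407). At an unadjusted edgeR p under 0.05, 4 endothelial markers were higher and 0 lower, and DESeq2 called 2 higher and 0 lower. Of 8 mural markers 1 rose and 0 fell in edgeR, and the median was 0.20. At an unadjusted edgeR p under 0.05, 4 were higher and 1 lower, and DESeq2 called 1 higher and 1 lower. The marker that rose was Pdgfrb, a receptor of pericytes (0.24, edgeR adjusted p = 0.0442). Abcc9 was at -0.27 (edgeR adjusted p = 0.0838), with 6 of 9 hMut hearts below every Ctrl heart. Of 10 fibroblast markers 0 passed in edgeR, but 8 were higher at an unadjusted p under 0.05 and 2 with DESeq2. Their summed level was 1008 to 2202 CPM in hMut and 1016 to 1186 CPM in Ctrl, and the smallest adjusted p was that of Postn, periostin of activated fibroblasts (1.36, edgeR adjusted p = 0.0512).

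Among 4 tested atrial markers 1 rose, Bmp10, a secreted growth factor, from 0.216 ± 0.0845 CPM in Ctrl to 10.6 ± 7.85 CPM in hMut (log2 fold change 5.58, edgeR adjusted p = 3.25e-05), with 9 of 9 hMut hearts above every Ctrl heart. Nppa, the atrial natriuretic peptide, was at 1.16 (edgeR adjusted p = 0.101). The atrial markers Sln and Myl7 did not pass the filter on low counts. Among 4 tested skeletal muscle markers 1 rose, the actin gene Acta1, which the heart also expresses (1.31, edgeR adjusted p = 0.0385). Of 4 neutrophil markers and 1 adipocyte marker tested, 0 passed in edgeR or DESeq2 and 0 had an unadjusted p under 0.05. The part of these cell types in the stress response values was not tested. The 2 hearts with the most macrophage signal, hMut 6 and hMut 9, were also the 2 highest in Atf3, Atf5, Cebpg, Ddit3 and Nupr1. In Atf5 hMut 6 was almost level with hMut 7 (143.36 and 143.32 CPM). In Atf4, Chac1, Sesn2 and Cebpb hMut 6 ranked 3rd, and in Trib3 4th. Without hMut 6 and hMut 9 the same 9 genes were higher in hMut.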

How the data were processed

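RNA was measured in 17 libraries of heart tissue (9 hMut and 8 Ctrl), 1 per mouse, grouped as hMut or Ctrl by their labels. The authors selected polyadenylated RNA, cleaned the reads with fastp, mapped them with HISAT2 2.2.1 to GRCm39 and used featureCounts 2.0.6 to make the raw counts per gene that they deposited, without normalization. Total counts were between 32915159 and 46486964, and whether counting used strand is not given in the sources used here.

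The counts were normalized by TMM, filtered by filterByExpr and entered into the quasi-likelihood test of edgeR 4.0.16 (R 4.3.3). Group (hMut or Ctrl) was the only term, with Benjamini-Hochberg adjustment over 16195 genes at a threshold of 0.05. The procedure was first tested on simulated data. The SE of a log2 fold change was its size over the root of F. CPM used the TMM library sizes, and log2 CPM a prior count of 2. Orders and ratios were tested by exact permutation over hearts (numpy 2.4.6, scipy 1.17.1, pandas 2.3.3, Python 3.11.15). p-values judge a difference or an order against the variation between these mice.

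Genes named are the 10 genes, the 3 with the smallest adjusted p of each list discussed and, for marker lists, the 3 with the highest mean CPM, and the 8 genes most like the 10 over hMut hearts. C1qb, Creb3l2, Dbp, Hlf, Tef, Slc1a5 and Slc7a1 were named in addition, with their values already known, and some genes of the rule are left out where a list is given by its counts. The 10 genes and the lists were chosen with earlier results of these data known, and the lists were written from general knowledge. Alternatives were DESeq2 1.42.0, limma 3.58.1 (voom with quality weights), RLE and upper-quartile normalization, scaling on cardiomyocyte markers, other filters, a table of protein-coding genes that leaves out the mtDNA-encoded, a sex term, replicate number as a block and libraries left out. The mtDNA mutation burden of each heart was not used here.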

Additional observations from a re-analysis of the deposited data

Results flagged for a closer look

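Each heart was compared with the others of its group by the gap to its nearest neighbour over the whole range, in 28 sets of values (the 10 genes and 3 summed marker lists on the log2 scale, and the share of mtDNA-encoded counts, in each group). Chance alone marks about 5% of such sets. None of the 10 stress response genes had a heart that stood apart in this way, hMut 9 and the Ddit3 level of hMut 6 included. The gap to the nearest neighbour is small where hearts are high together, as hMut 6 and hMut 9 were for Ddit3. It therefore says little about such hearts. 3 other values stood apart. The lymphocyte markers of hMut replicate 6 summed to 76.1 CPM, the highest of the hMut hearts. In Ctrl replicate 3 the cardiomyocyte markers summed to 48922 CPM, the lowest of Ctrl, and mtDNA-encoded genes took 30.9% of the counts, the highest of Ctrl. The levels of the stress response genes in Ctrl replicate 3 lay within the range of the other Ctrl hearts except for Nupr1, which was highest there at 3.55 CPM, and Cebpb, which was lowest there at 8.12 CPM.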

How the results depend on the processing

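All 10 genes kept a positive log2 fold change under 28 alternatives to the fit of hMut against Ctrl. Trib3, Atf5, Chac1, Atf4, Sesn2, Nupr1 and Cebpg passed under all 28, Atf3 and Ddit3 under 27, and Cebpb under 0. Scaled on cardiomyocyte markers, 40 of 45 ATF4 targets rose, but so did 44.7% of all tested genes. Under the other alternatives between 30 and 34 rose, of 43 to 46 tested, against 1.04% to 7.26% of all tested genes. Replicate numbers were also tried as a replicate block, which called 195 genes and 7 of the 10, without Atf3 (adjusted p = 0.109) and Ddit3 (adjusted p = 0.0544). Same-numbered hearts had correlated deviations from -0.225 to 0.339 over 8 pairs, so the numbers were not taken to pair the hearts.

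The count of all genes called, 749 as reported, was 1517 with DESeq2, 2081 with limma-voom, 463 without a filter, 431 without hMut 6 and hMut 9, and 395 to 1792 with 1 library left out (highest without hMut replicate 2, lowest without hMut replicate 5). Scaled on cardiomyocyte markers it was 7320, of which 7232 were higher, against 564 of 749 as reported. The cause was not tested.

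The count of genes following Atf4, 83 as reported, was 40 with RLE normalization and 4494 scaled on cardiomyocyte markers. It was 0 without hMut 6 and hMut 9, and 0 to 236 with 1 heart left out. With the mean standardized profile of the 10 genes as the anchor instead of Atf4, 569 genes followed. Each of the 10 genes was left out of its own mean there. Of the 9 stress response genes, 4 followed as reported, 8 with cardiomyocyte scaling and 8 with that anchor. The number was 0 without hMut 6 and hMut 9 and 0 to 4 with 1 heart left out. With fewer hearts the smallest p of the test is larger, so these counts of 0 do not show a changed order. Without hMut 6 and hMut 9, rho with Atf4 was between 0.86 and 1 for the 8 genes other than Cebpb, and 0.54 for Cebpb. In a comparison added after the data were seen, without hMut 6 and hMut 9, 6 genes instead of 7 differed from Atf4, and 3 differences that had not passed changed sign, Ddit3 minus Atf4 to -0.11, Atf3 minus Nupr1 to -0.0225 and Nupr1 minus Atf5 to -0.16. At these depths the lowest Ctrl count of any of the 10 genes was 56.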
